A study of Gallus gallus with 8 samples.

Results

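N-linked glycans are sugar trees that the endoplasmic reticulum attaches to asparagines of proteins entering the secretory pathway, and that the Golgi then trims, extends and caps. The roles given below are those of the mammalian genes. DDOST and DAD1 are subunits of the oligosaccharyltransferase (OST), the enzyme complex that moves the ready-made glycan from its lipid carrier onto the growing protein, and DAD1 is also known as a gene whose loss leads to apoptosis. B4GALT1 is a Golgi galactosyltransferase that adds galactose to the outer arms of the glycan, where sialic acid can follow. FUT8 is the fucosyltransferase that puts fucose on the innermost sugar of the glycan core, a change known on antibodies and on surface receptors of B cells.

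These 4 genes were chosen by name, with earlier results of these data known. Every probe whose accession belongs to the chicken RefSeq gene of that symbol was taken, which gave 9 probes (1 for FUT8, 3 for DDOST, 3 for B4GALT1 and 2 for DAD1) of 43603 different probes, or 4 of 31523 gene entries, on an Agilent one-colour chicken array. The cells were DT40, a chicken B cell line from a bursal lymphoma. The series holds 3 arrays of wild-type DT40 cells (WT), 2 of cells labelled BCL6-deficient (BCL6KO) and 3 of cells labelled deficient in both IRF4 and BCL6 (DKO), and no other agent, treatment or time is given. BCL6 represses transcription in the germinal centre, and IRF4 drives the step from B cell to plasma cell. The labels do not say how many clones stand behind each knockout line, and the RNA protocol mentions separate cultures for WT and for an IRF4 knockout but not for the other genotypes. The p-values therefore measure the spread between these arrays, which may be partly technical.

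Levels are given on a log2 scale, as the processed signal of a probe over the 75th percentile of all signals on its array, so 0 is the level of a probe at that percentile. A gene was called when its adjusted p from a limma model over all 8 arrays and 24136 tested genes was under 0.05. Calls were common: 69.6% of all genes tested were called in the comparison of BCL6KO with WT, 52.3% in that of DKO with WT and 68.3% in that of DKO with BCL6KO. All 3 comparisons reuse the same arrays, so each comparison's values are given side by side and no agreement between them is counted. Where groups are said to be apart or not to overlap, the share of all genes with such groups was not counted. In DKO against WT this also held for genes that were not called.

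Several facts of the whole series touch the results. The mean IRF4 level was -1.72 on the arrays labelled DKO, against 3.01 for WT and 5.09 for BCL6KO. The mean BCL6 level was -4.73 on the BCL6KO arrays and 2.56 on those of WT, but 0.81 on the arrays labelled DKO. Of its 4 probes, 3 placed DKO between WT and BCL6KO in this way. The 4th, at -2.05 in WT, read not well above background on all arrays of both knockouts. These values are of different probes of the transcript, and which part of the gene was deleted is not given in the labels. The BCL6KO arrays were scanned in another session and read with another version of the scanner software than the WT and DKO arrays, so for BCL6KO the scan session and the genotype cannot be told apart. The authors' deposited value table goes against its own labels: its columns labelled WT followed the scanner arrays labelled DKO (Pearson's r across probes 0.9994 to 0.9996). Its columns labelled DKO followed no scanner array as closely. Their best match was a WT array each time (r 0.898 to 0.972, against 0.860 to 0.923 for the array of the same label). In the value table the brightest IRF4 probe reads 9.55 to 9.67 on a log2 scale in the columns labelled WT. It reads 14.47 to 15.20 in those labelled DKO, and 16.12 and 16.51 in those labelled BCL6KO. The brightest BCL6 probe reads 12.03 to 12.29, 13.66 to 13.76, and 6.80 and 6.36 in the same order of columns. Whether labels were exchanged was not tested. In that table FUT8 reads 9.41 to 9.44 on a log2 scale in the columns labelled WT and 10.55 to 11.05 in those labelled DKO, the opposite order to that of the scanner files. B cell markers were read as a check of DT40 identity. Of 10 on the array, 10 were well above background on every WT array and every array labelled DKO. On both BCL6KO arrays 7 were, while EBF1 and CD72 were so on 1 array each and PAX5 on 0. Of all spots, 62.4% to 68.2% per array were well above background in WT, 65.8% to 67.8% in DKO and 75.1% to 79.2% in BCL6KO. Against WT, 9 of the 10 fell in BCL6KO and 0 rose (27.7% and 42% of all genes). Their median log2 change was -6.41. A marker well above background in BCL6KO can therefore lie far below its WT level. Everything below rests on the scanner files.

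All 4 genes had their highest level in BCL6KO, where 42% of all genes tested rose against WT. Each of the 9 probes was well above background on all 8 arrays, with no saturated spot and no outlier flag, so each level is a measured one. The plot of levels by array shows every probe of the 4 genes.

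**Figure D1:**
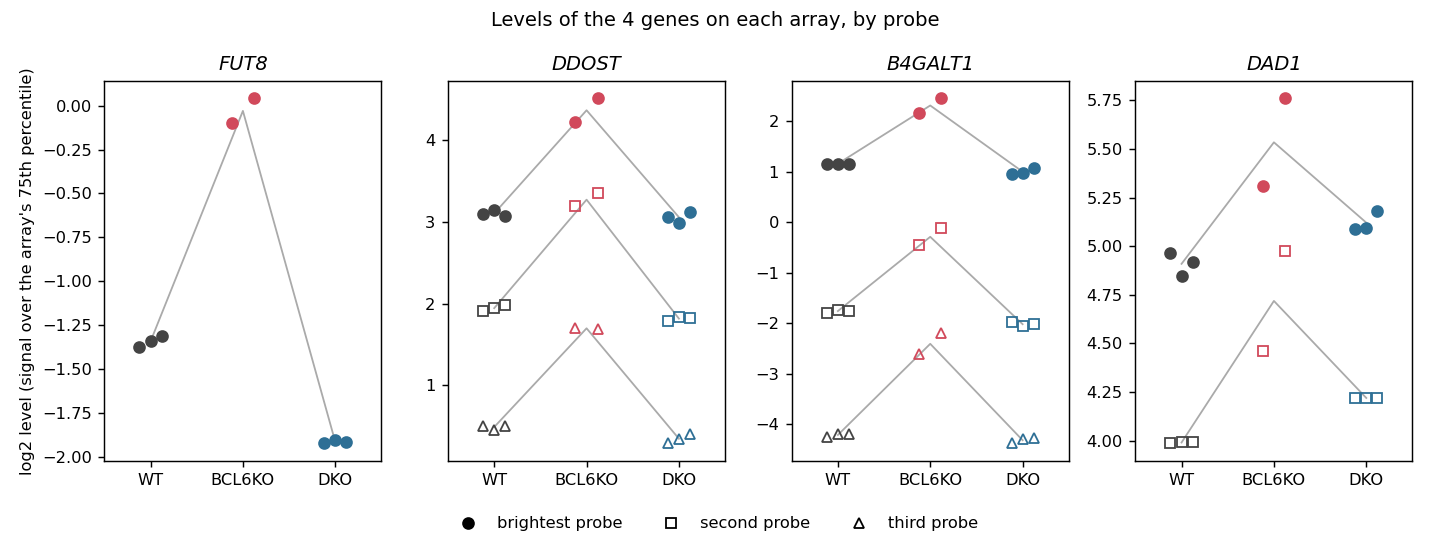
Level of each probe of FUT8, DDOST, B4GALT1 and DAD1 (vertical axis, log2 of signal over the array's 75th percentile) on each of the 8 arrays, grouped as WT, BCL6KO and DKO. A point is 1 array, a symbol shape is 1 probe and the lines join group means. Both BCL6KO arrays lie above all other arrays for all 9 probes. How many of all probes do so was not counted. In BCL6KO against WT, 70.3% of all probes tested were called in either direction, which is another measure. The widest gap between WT and the arrays labelled DKO is that of FUT8.

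FUT8, the core fucosyltransferase, was the gene of the 4 that was called in DKO against WT, where 52.3% of all genes tested were called. Its level was -1.37, -1.34 and -1.31 on the 3 WT arrays, -0.10 and 0.04 on the 2 BCL6KO arrays, and -1.92, -1.90 and -1.91 on the 3 arrays labelled DKO. No group overlapped another, and BCL6KO was highest and DKO lowest. Against WT, FUT8 rose 2.48-fold in BCL6KO (log2 change 1.31 ± 0.07, SE, limma adjusted p = 6.71e-06). In DKO it fell 1.49-fold below WT (log2 change -0.57 ± 0.06, SE, limma adjusted p = 0.000267). Between the knockouts the difference was 3.69-fold, with DKO the lower (log2 change -1.88 ± 0.07, SE, limma adjusted p = 1.59e-06). On the 2 slides that carried both a WT array and an array labelled DKO, DKO was lower than WT by -0.58 and -0.59. FUT8 has a single matched probe, so no second probe was there to compare. Its fall in DKO lost the call with normexp background correction (adjusted p = 0.0551) and when a change beyond 1.5-fold was required (adjusted p = 1). Under normexp the call was kept once 18 outlying background values of the first BCL6KO array were repaired.

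DDOST, the OST subunit, was high in BCL6KO, and its WT and DKO levels overlapped. Its brightest probe gave 3.09, 3.15 and 3.07 on the WT arrays, 4.22 and 4.51 on the BCL6KO arrays, and 3.06, 2.99 and 3.12 on the arrays labelled DKO. Both BCL6KO arrays stood above the other 6, while WT and DKO overlapped. DDOST rose 2.40-fold in BCL6KO (log2 change 1.26 ± 0.10, SE, limma adjusted p = 4.6e-05) and fell 2.48-fold from BCL6KO to DKO (limma adjusted p = 4.27e-05). For DKO against WT the change was -0.05 ± 0.09 (SE, limma adjusted p = 0.705), with a 95% interval of -0.26 to 0.16 in the fit of all probes. The other probes gave the same picture in BCL6KO, at 2.51-fold and 2.31-fold above WT. Their DKO arrays lay just under WT without overlap, by -0.13 and -0.14, and neither was called (limma adjusted p = 0.127 and 0.0738 over all 34229 probes).

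B4GALT1, the galactosyltransferase, followed the pattern of DDOST. Its brightest probe read 1.16 on each of the 3 WT arrays, 2.17 and 2.46 on the BCL6KO arrays, and 0.96, 0.97 and 1.08 on the arrays labelled DKO. The groups did not overlap, but the step from WT to DKO was small beside that to BCL6KO. B4GALT1 rose 2.22-fold in BCL6KO (log2 change 1.15 ± 0.10, SE, limma adjusted p = 5.99e-05) and fell 2.48-fold from BCL6KO to DKO (limma adjusted p = 3.6e-05). DKO against WT gave -0.16 ± 0.09 (SE, limma adjusted p = 0.174), and on the 2 shared slides -0.20 and -0.19. This last change passed the threshold when arrays were scaled by their median (-0.31, adjusted p = 0.0144) and without either BCL6KO array (-0.16, adjusted p = 0.0255 both times). The size of the rise in BCL6KO depended on the probe: it was 2.22-fold, 2.77-fold and 3.49-fold from the brightest to the dimmest of the 3 probes. The dimmest had WT levels of -4.25 to -4.18 and BCL6KO levels of -2.61 and -2.20.

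DAD1, the other OST subunit among the 4, had the smallest change in both comparisons with BCL6KO. Its brighter probe gave 4.96, 4.85 and 4.92 on the WT arrays, 5.31 and 5.76 on the BCL6KO arrays, and 5.09, 5.09 and 5.18 on the arrays labelled DKO. The groups did not overlap, and the BCL6KO arrays lay further from each other than WT lay from DKO. DAD1 rose 1.54-fold in BCL6KO (log2 change 0.62 ± 0.13, SE, limma adjusted p = 0.00516). From BCL6KO to DKO it fell 1.33-fold (log2 change -0.41 ± 0.13, SE, limma adjusted p = 0.0293). DKO against WT gave 0.21 ± 0.12 (SE, limma adjusted p = 0.186), with 0.24 and 0.18 on the shared slides, so DAD1 was the gene of the 4 whose DKO mean lay above that of WT. The second probe gave 1.66-fold for BCL6KO over WT and 1.41-fold for BCL6KO over DKO. Without the second BCL6KO array the rise over WT was 0.40 (adjusted p = 0.00404) and the fall from BCL6KO to DKO was -0.19 (adjusted p = 0.061). The remaining BCL6KO array is there assumed to vary like the WT and DKO arrays, which alone give the spread. The fall was not called either without any one of the arrays labelled DKO (adjusted p = 0.0509 to 0.0738). Without either BCL6KO array, DAD1 was called as higher in DKO than in WT (0.21, adjusted p = 0.0135).

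The 4 genes and the gene lists below were chosen with earlier results of these data known, so their counts are a description and no test. Counted together, 4 of 4 genes rose in BCL6KO against WT, where 42% of all genes tested rose and 27.7% fell. For DKO against WT, 1 of 4 fell (FUT8) and 0 rose, where 23.7% of all genes fell and 28.5% rose. For DKO against BCL6KO, 4 of 4 fell, where 39.4% of all genes fell and 29% rose. In a fit of all 34229 probes that passed, each was tested on its own. All 9 probes were called in BCL6KO against WT, each as risen (70.3% of all probes were called in either direction). All 9 were called in DKO against BCL6KO, each as fallen (68.6% called in either direction). FUT8 alone was called for DKO against WT (53.8% called in either direction). The shares of all probes that rose or that fell were not counted, so the directions have no share beside them. The 9 probes are not independent, since those of a gene share its transcript. The plot of probe changes gives the interval of each.

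**Figure D2:**
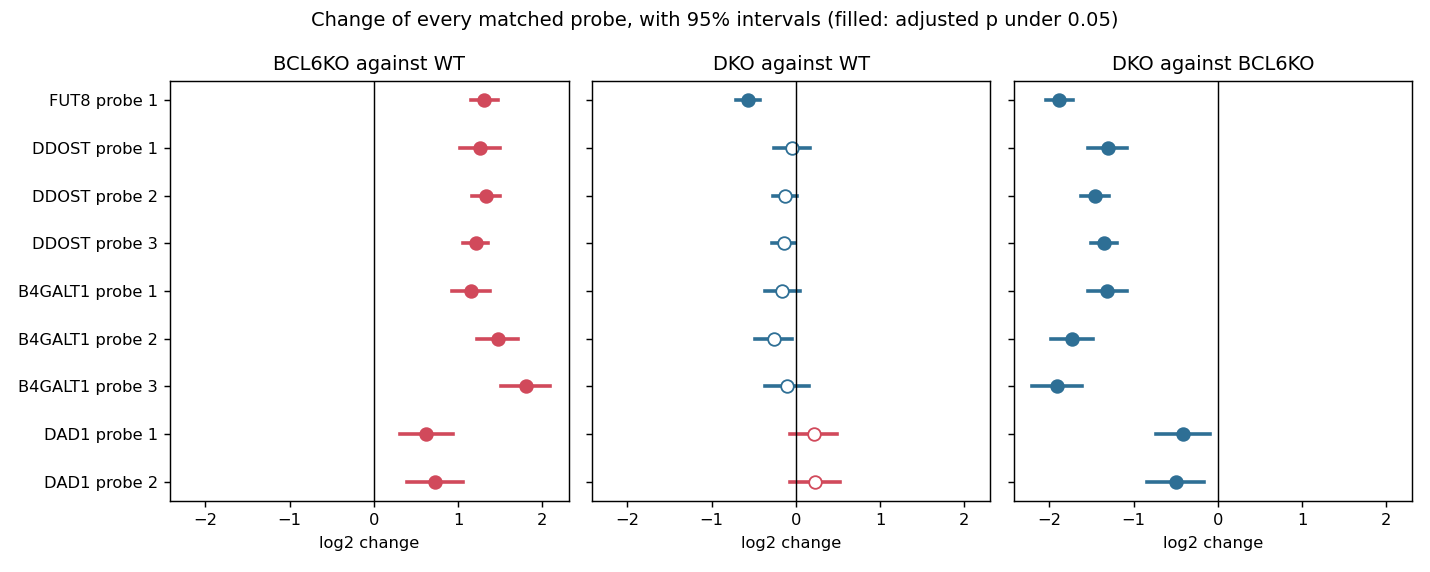
log2 change (horizontal axis) of each of the 9 probes in the 3 comparisons, with 95% intervals from the limma fit of all probes; filled points have an adjusted p under 0.05. In BCL6KO against WT the changes run from 0.62 (DAD1) to 1.80 (B4GALT1), and in DKO against WT the FUT8 probe at -0.57 is the filled point.

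The measured changes of the 4 genes differed in size. The DDOST level minus the DAD1 level on the same array, which cancels any factor common to an array, was -1.87 to -1.70 in WT, -1.25 to -1.09 in BCL6KO and -2.10 to -2.03 in DKO. Its absolute value compares different probes and carries no meaning, so only its change is read. From WT to BCL6KO it rose by 0.64, or 1.56-fold, and by 0.48 to 0.70 over the 6 pairings of their probes. An exact two-sided permutation test gave p = 0.1, the smallest that 3 against 2 arrays allow. Subtraction on the same array does not remove differences in how probes respond. Probes of 1 gene differed too: those of B4GALT1 gave log2 changes of 1.15, 1.47 and 1.80 in BCL6KO against WT. Whether the transcripts themselves changed by unlike amounts is therefore not settled by these values. FUT8 minus DDOST moved by 0.05 from WT to BCL6KO, with groups that overlapped (exact permutation p = 0.6), but by -0.52 from WT to DKO, with groups apart (exact permutation p = 0.1, the smallest that 3 against 3 arrays allow). DDOST and B4GALT1 were the closest pair, with a root-mean-square (RMS) difference of 0.061 between their levels over the 8 arrays, each gene centred on its own mean. The other 5 pairs of the 4 genes differed by 0.24 to 0.58.

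Genes with the most similar profile were sought among 3581 genes with a symbol, by the same RMS difference over 8 arrays. For FUT8 these included HS6ST1 (0.11) and KCNA3 (0.112), against a median of 0.824 over all candidates. The mean level of HS6ST1 was highest in BCL6KO (-0.12), lower in WT (-1.59) and lowest in DKO (-2.19), the same order as FUT8. For DDOST they were B4GALT1 (0.061), GOT2 (0.063) and RASSF8 (0.063), against a median of 0.669. For B4GALT1 they were CMC1 (0.04), NUDT19 (0.059) and DDOST. For DAD1 they were RER1 (0.042), LEUTX (0.043) and HINT2 (0.049), against a median of 0.433. The mean level of RER1 was 3.18 in BCL6KO and 2.52 in WT, and its DKO mean of 2.78 also lay between them. These likenesses are a description over arrays that share genotype, scan session and depth.

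The rest of the OST complex was read next. Of 12 OST genes listed, 7 had a matched probe and all 7 were tested. Beside DDOST and DAD1 these were RPN2, STT3B (a catalytic subunit), MAGT1 (its oxidoreductase partner), OSTC and TMEM258. In BCL6KO against WT, 7 of 7 rose (42% of all genes), with a median log2 change of 0.67 against 0.24 for all genes tested. In DKO against BCL6KO, 7 of 7 fell (39.4% of all genes), with a median of -0.54 against -0.18.

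DDOST had the greatest change of the 7 in both of these comparisons. RPN2 rose 1.71-fold in BCL6KO, from WT levels of 3.32 to 3.33 to 4.05 and 4.16 (limma adjusted p = 9.35e-05). MAGT1 rose 1.76-fold (limma adjusted p = 0.000185) and TMEM258 1.59-fold (limma adjusted p = 0.000909). OSTC rose 1.36-fold and STT3B 1.35-fold (limma adjusted p = 0.00786 and 0.0359), the smallest rises of the 7. The first BCL6KO array alone would give 1.21-fold and 1.13-fold for these genes, and the second 1.54-fold and 1.62-fold. For STT3B, 1 of its 3 probes was not called in this comparison. With the median as the scale of each array, 5 of the 7 rose in BCL6KO, and with normexp correction 0 of 7 were called. Once 18 outlying background values of the first BCL6KO array were repaired, the calls of DDOST and DAD1 held under normexp.

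In DKO against WT, 3 OST genes rose and 0 fell, with a median of 0.20 against 0.07 for all genes, of which 28.5% rose and 23.7% fell. The 3 were TMEM258 (1.26-fold, limma adjusted p = 0.0184), MAGT1 (1.21-fold, limma adjusted p = 0.0223) and RPN2 (1.15-fold, limma adjusted p = 0.0354). STT3B gave -0.26, DDOST -0.05, OSTC 0.16 and DAD1 0.21, none of them called. The direction depends on the scale: with arrays scaled by their median, 0 OST genes rose and 1 fell. Between 0 and 6 of the 7 were called (6 without either BCL6KO array, 0 without DKO array 1 or 3 or WT array 3) over the 22 other ways of processing and of leaving arrays out. In DKO against BCL6KO, the falls ran from 1.22-fold (OSTC) to 2.48-fold (DDOST), and 4 of 7 passed the threshold when arrays were scaled by their median. Over all alternatives between 0 and 7 of the 7 passed.

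The wider pathway held 103 listed symbols, among them TSTA3 and GFUS for the same gene, and FUK and FCSK for another. None of these had a matched probe. Of the 103, 41 had a matched probe and 38 were tested, 3 being too dim. Of these 38, 26 rose and 10 fell in BCL6KO against WT, 12 rose and 9 fell in DKO compared with WT, and 7 rose and 26 fell in DKO compared with BCL6KO. The shares over all genes given above (42% and 27.7%, 28.5% and 23.7%, 29% and 39.4%) stand beside these, and in DKO against WT the pathway counts are near them. Without the 4 genes themselves the counts were 22 and 10, 12 and 8, and 7 and 22 of 34. The falls from BCL6KO to DKO include that of FUT10, which was not well above background in either group. With arrays scaled by their median, 5 rose and 12 fell in DKO against WT. In none of the 28 genes with several passing probes were probes called in opposite directions. The plot by role sets the steps of the pathway side by side.

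**Figure D3:**
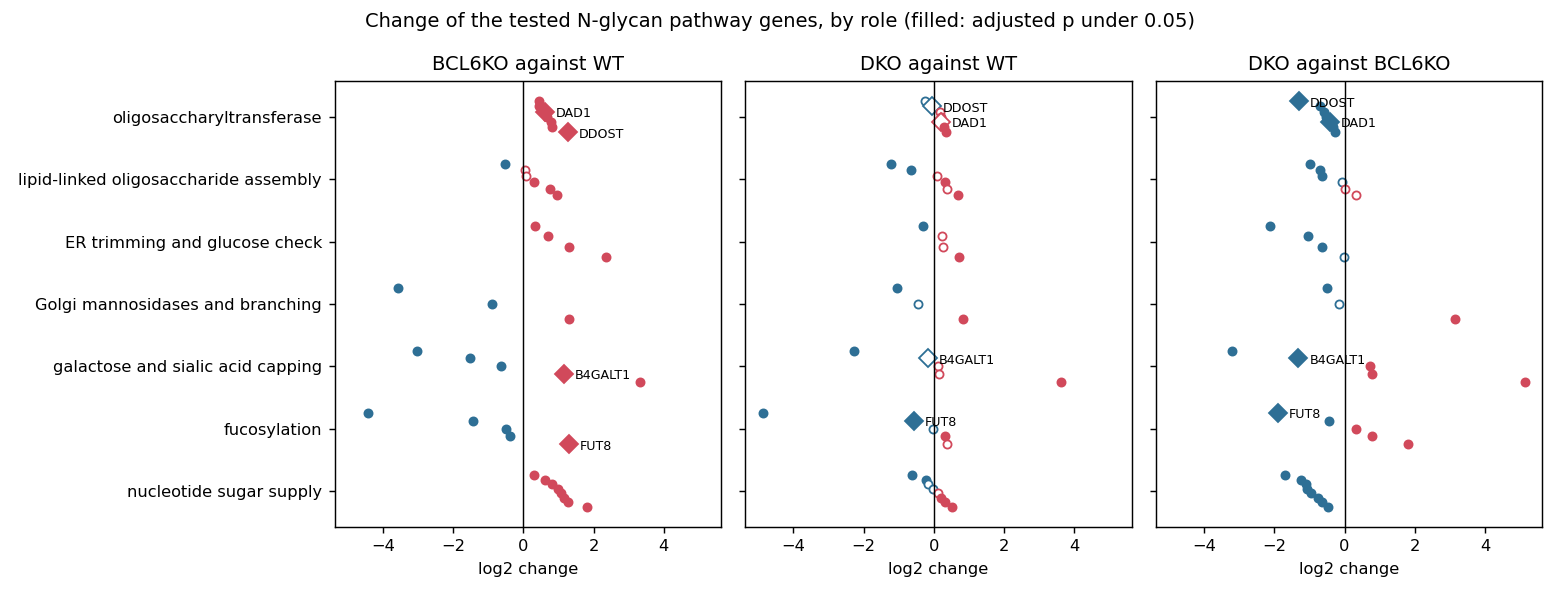
log2 change (horizontal axis) of the 38 tested N-glycan pathway genes in the 3 comparisons, in rows by role; each point is 1 gene, diamonds are the 4 named genes, and filled points have an adjusted p under 0.05. In BCL6KO against WT all 7 OST genes and all 8 genes of nucleotide sugar supply lie right of 0, while 4 of 5 fucosylation genes, FUT8 being the exception, lie left of it.

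Nucleotide sugar supply makes and carries the activated sugars that transferases such as FUT8 and B4GALT1 use. All 8 tested genes rose in BCL6KO against WT (median log2 change 1.03) and all 8 fell in DKO against BCL6KO (median -1.0), where 42% of all genes rose and 39.4% fell, respectively. SLC35A3, a Golgi transporter of activated N-acetylglucosamine, rose 3.48-fold in BCL6KO (limma adjusted p = 0.00013). GNE, which starts sialic acid synthesis, rose 2.39-fold in BCL6KO (limma adjusted p = 2.1e-05) and 1.42-fold in DKO against WT (limma adjusted p = 0.00128). CMAS, which activates sialic acid, fell 1.54-fold in DKO against WT and 2.35-fold in DKO against BCL6KO (limma adjusted p = 0.00197 and 9.56e-05). With normexp correction, 4 of the 8 were called in BCL6KO against WT and 2 in DKO against BCL6KO. That was before 18 outlying background values of the first BCL6KO array were repaired. In DKO against WT 3 of the 8 rose and 2 fell, near the shares of all genes (28.5% and 23.7%), and leaving out an array gave 3 to 7 called, the 7 being without either BCL6KO array.

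Among 4 tested genes of ER trimming and the glucose check, 4 rose in BCL6KO against WT (42% of all genes). EDEM3 and EDEM1, lectin-like proteins that mark misfolded glycoproteins for degradation, rose 5.08-fold and 2.45-fold (limma adjusted p = 6.92e-06 and 0.000914). In DKO against BCL6KO 3 of these 4 fell (39.4% of all genes). In DKO against WT the folding sensor gene UGGT2 rose 1.63-fold and the chaperone gene CANX fell 1.25-fold (limma adjusted p = 8.01e-05 and 0.0325). Of 6 tested genes that build the lipid-linked glycan, the substrate of OST, 3 rose and 1 fell in BCL6KO against WT. Over all genes 42% rose and 27.7% fell there. ALG12, a mannosyltransferase, rose 1.93-fold, while DPM2, which helps make the mannose donor, fell 1.44-fold (limma adjusted p = 0.000243 and 0.0101). DPM2 fell further in DKO, 2.35-fold below WT (limma adjusted p = 0.000145), and the mannosyltransferase gene ALG11, which had risen 1.24-fold in BCL6KO, fell 1.58-fold below WT in DKO (limma adjusted p = 0.00394 and 8.84e-05).

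The Golgi genes around B4GALT1 and FUT8 were mixed. Of 5 tested genes of galactose and sialic acid capping, 2 rose and 3 fell in BCL6KO against WT (42% and 27.7% of all genes). ST6GAL1, which adds sialic acid to the galactose that B4GALT1 has placed, fell 8.08-fold in BCL6KO (mean level 2.47 in WT, -0.54 in BCL6KO, limma adjusted p = 5.85e-07) and 4.87-fold in DKO (mean level 0.19, limma adjusted p = 1.42e-06). Of its 5 probes 4 fell in BCL6KO and 5 in DKO. ST3GAL6, another sialyltransferase, fell 2.85-fold in BCL6KO but rose 12.3-fold in DKO, both against WT (limma adjusted p = 0.000354 and 4.05e-06). B4GALT2, a relative of B4GALT1, rose 1.72-fold from BCL6KO to DKO (limma adjusted p = 0.00184), the comparison in which B4GALT1 fell. ST8SIA4, named after its values were seen because it lies at the edge of the plot, stood well above background on the BCL6KO arrays alone. It passed the filter through them and is counted among the 2 risen genes. Its WT signals were near background, so its rise is given only as a bound, of at least 2.68-fold.

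Only 3 genes of Golgi mannosidases and branching were tested. MAN1C1, a mannosidase, rose 2.48-fold in BCL6KO (limma adjusted p = 9.62e-06), while the branching genes MGAT4A and MGAT4C fell 1.86-fold and 11.9-fold (limma adjusted p = 0.000104 and 0.00164). The MGAT4C value is unsteady: its BCL6KO arrays read -2.21 and -4.56, which alone would give 5.27-fold and 26.9-fold, and its probes gave log2 changes of -3.57 and -1.77. In DKO, MGAT4A fell 2.07-fold below WT (limma adjusted p = 3.73e-05).

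FUT8 was the single fucosylation gene of the 5 tested that rose in BCL6KO against WT, where 42% of all genes rose and 27.7% fell. The other 4 fell, among them SLC35C1, the Golgi transporter of the fucose donor that FUT8 uses, at 2.68-fold (limma adjusted p = 0.000513), and POFUT1, a fucosyltransferase of other substrates, at 1.39-fold (limma adjusted p = 0.00662). In DKO against BCL6KO 3 of the 5 rose and 2 fell (29% and 39.4% of all genes). FUT8 fell, while SLC35C1 and POFUT1 rose 3.50-fold and 1.72-fold (limma adjusted p = 0.000172 and 0.000705). FUT10 was the other gene called as fallen. It was not well above background in either group, so this fall is not a measured one. FUT10, another gene of the fucosylation list also named after its values were seen, read not well above background on all arrays of both knockouts. It was at least 15.7-fold lower in BCL6KO and at least 7.16-fold lower in DKO than in WT. These are bounds that depend on the lowest passing signal of each array, so their sizes are not compared. FUT10 passed the filter through the WT arrays alone.

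Markers of other cell types moved with the genotypes and are given here as measured. The summed level of the 10 B cell markers on the array, in multiples of the array's 75th percentile, was 183 to 203 in WT, 33.8 to 52.9 in BCL6KO and 79.8 to 99.1 in DKO. That of 3 plasma cell markers was 29.4 to 31.3, 49.7 to 66.3 and 33.8 to 36.7. Of 15 fibroblast or mesenchymal markers, 3 were well above background on every WT array, 12 on both BCL6KO arrays and 4 on every array labelled DKO, with summed levels of 0.543 to 0.574, 6.09 to 7.83 and 2.66 to 3.04. In BCL6KO the mesenchymal marker SNAI2 was not well above background. The BCL6KO arrays had more spots well above background in general. The share of all spots per array was 62.4% to 68.2% in WT, 75.1% to 79.2% in BCL6KO and 65.8% to 67.8% in DKO. The summed level of 6 T cell markers was 65.7 to 68.2, 1.68 to 3.04 and 8.46 to 11.04. That of 6 myeloid markers was 0.513 to 0.58, 0.43 to 1.37 and 0.772 to 0.831, and that of 3 erythroid markers was 0.0392 to 0.0437, 0.0389 to 0.0602 and 1.06 to 1.12. Several of these sums rest on few genes, among them both of those highest in BCL6KO. POU2AF1 (levels 4.95 and 5.66) makes up most of the B cell sum in BCL6KO, and was not called there against WT. The other 9 B cell markers fell (27.7% of all genes), with a median log2 change of -6.41 over the 10. CD3D (mean level 6.01 in WT) makes up most of the T cell sum in every group. Of 5 tested T cell markers, 3 fell and 2 (CD28 and GATA3) rose in BCL6KO against WT (27.7% and 42% of all genes). Neither CD28 nor GATA3 was well above background on any WT array, so their rises rest on WT signals near background. In the mesenchymal list CDH11, with levels of 2.43 and 2.80 in BCL6KO and not well above background in WT, makes up most of the sum, while COL1A2 was lowest in BCL6KO (mean level -3.21) and highest in DKO (1.30). In the plasma cell list XBP1 and JCHAIN had their highest means in BCL6KO, and SDC1 was highest in WT (mean level 0.17, against -0.18 in BCL6KO). Their part in the levels of FUT8, DDOST, B4GALT1 and DAD1 was not tested, and in bulk RNA fewer cells of a type and less RNA per cell cannot be told apart.

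The 4 genes were also followed through 22 other ways of processing the scanner files and of leaving arrays out (21 for the comparisons that involve BCL6KO). FUT8 was called in every one of them for BCL6KO over WT (log2 change 1.02 to 1.45) and for DKO over BCL6KO (-1.95 to -1.74). DDOST stayed between 0.94 and 1.41 in BCL6KO against WT, and B4GALT1 between 0.78 and 1.48. DAD1 ranged most widely for its size, from 0.18 to 0.85 for BCL6KO over WT and from -0.64 to 0.10 for DKO over BCL6KO.

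**Figure D4:**
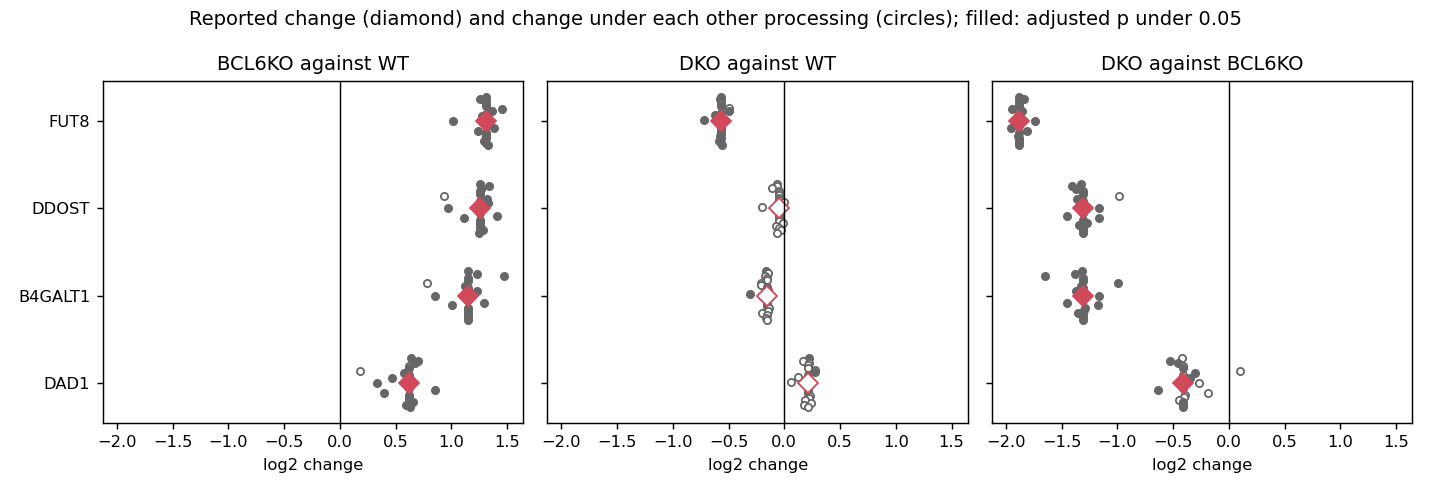
log2 change (horizontal axis) of FUT8, DDOST, B4GALT1 and DAD1 in the 3 comparisons as reported (diamonds) and under each other processing or left-out array (circles); filled symbols have an adjusted p under 0.05. FUT8 in DKO against BCL6KO stays between -1.95 and -1.74, whereas DAD1 in that comparison reaches 0.10 in 1 setting.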

How the data were processed

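Total RNA from DT40 cells was hybridised to one-colour Agilent arrays, 8 in all. Per the file headers, the deposited scanner files give each spot's processed signal as a linear intensity, after background subtraction and detrending by Feature Extraction (10.7.1.1 for WT and DKO, 10.7.3.1 for BCL6KO), with no normalization between arrays, together with median signals, also as intensity, and flags. The submitters' processing notes name limma and R 2.12.0, without settings. The authors' deposited value table also holds intensity on a linear scale. How its values were centred is not given in the sources used here. Its column medians were 228 for the columns labelled BCL6KO and DKO and 225 for those labelled WT. It was set against the scanner files and used for no test, because its labels conflict with them.

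From the scanner files, log2 of the processed signal minus the array's 75th percentile was computed. Spots of a probe were averaged, and probes had to stand well above background on 2 or more arrays (34229 probes did). Each gene was represented by the probe with the highest mean, and 24136 genes were tested. A linear model with a mean per group, fitted with limma 3.58.1 in R 4.3.3, gave the 3 contrasts on 5 residual degrees of freedom, with Benjamini-Hochberg adjustment over all genes. The number of arrays limits the precision. The steps were tested on simulated data.

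On the arrays, 43803 spots were read, of which 62.4% to 68.2% were well above background in WT, 65.8% to 67.8% in DKO and 75.1% to 79.2% in BCL6KO, and 0 were saturated. Across genes, r was 0.992 to 0.994 within WT and within DKO and 0.984 between the BCL6KO arrays, whose log2 differences had an SD of 0.652 against 0.442 to 0.486 in the other groups. The pooled spread may therefore be too small for BCL6KO.

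Probe accessions were looked up in the RefSeq table of assembly GRCg7b, which named 10857 probes with 5005 symbols. The array was designed on another build, galGal3, so no coordinates are given, and no probe or gene sequence was used here. The members and the gene lists were chosen with earlier results of these data known. Named were the 4 genes with every probe, the targeted genes, every tested OST subunit, and of each other list and comparison the 2 called genes that rose and the 2 that fell with the largest change among genes well above background on all arrays. The 3 most similar genes of each of the 4 were also named. A few genes that these rules pick are not reported here. Where a group read not well above background on every array, the fold is a bound, taken over each array's lowest signal that passed as well above background, or the probe's own level if higher. Replicate numbers did not pair the arrays: deviations of same-numbered arrays correlated at -0.06 to 0.04. Alternatives were scaling by the median, quantile and cyclic loess normalization, normexp background correction, other filters on dim probes, the mean over probes, a replicate block, the slide as a block, only the groups compared, array weights, a minimum fold of 1.5 and leaving out each array. Normexp was planned on mean signals, which the files used here do not have, so median signals were used.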

Additional observations from a re-analysis of the deposited data

How the results depend on the processing

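Of the 12 changes of the 4 genes, 4 kept direction and call under every alternative: FUT8 in both comparisons with BCL6KO, B4GALT1 in DKO against BCL6KO and DDOST in DKO against WT, which was not called under any of the 22 alternatives (-0.20 to -0.01). Normexp correction of the median signals changed most: it called 6876, 2819 and 5933 genes for BCL6KO against WT, DKO against WT and DKO against BCL6KO (16807, 12620 and 16491 as reported), and 13, 6 and 13 of the 38 pathway genes (36, 21 and 33 as reported). It ended the calls of DDOST (0.94, adjusted p = 0.0607), B4GALT1 (0.78, adjusted p = 0.0746) and DAD1 (0.18, adjusted p = 0.668) in BCL6KO against WT, of FUT8 in DKO against WT (-0.49, adjusted p = 0.0551) and of DDOST in DKO against BCL6KO (-0.98, adjusted p = 0.0591), and it reversed DAD1 in DKO against BCL6KO (0.10, adjusted p = 0.814). A total of 18 spots of the first BCL6KO array have background values more than 10 times above or below the median of the array. With these set to that median, the calls named here held, and DAD1 was also called in DKO against WT (0.28, adjusted p = 0.0496).

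Scaling by the median moved the median change of all genes in BCL6KO against WT from 0.24 to -0.05, and the split of calls into risen and fallen genes from 10131 and 6676 to 7564 and 9119. For DKO against WT the split moved from 6889 and 5731 to 5399 and 7504. Under this scaling B4GALT1 was called in DKO against WT (-0.31) and DAD1 was not in DKO against BCL6KO (-0.27, adjusted p = 0.0898). Fitting only the 2 groups compared called 32 pathway genes in DKO against WT, and also B4GALT1 (-0.16, adjusted p = 0.0255) and DAD1 (0.21, adjusted p = 0.0135) there, but not DAD1 in DKO against BCL6KO (-0.41, adjusted p = 0.0784). Array weights did likewise, with -0.16 for B4GALT1, 0.22 for DAD1, and -0.42 for DAD1 in DKO against BCL6KO (adjusted p = 0.0794). Requiring more than 1.5-fold left 8604, 5260 and 8113 genes and 23, 6 and 14 pathway genes, and ended the calls of DAD1 (0.62 and -0.41) and of FUT8 in DKO against WT (-0.57).

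With the replicate block, DAD1 in DKO against BCL6KO was -0.43 (adjusted p = 0.0658), and no other call of the 4 genes changed. The pathway genes called went from 36 to 33, from 21 to 15 and from 33 to 28. The correlation of arrays on a slide was -0.009, and the slide as a random block changed no call of the 4 genes. The fit of the slides that hold both WT and DKO with the slide as a fixed block, and the fit of every probe, were chosen after seeing the data, and they changed no call of the 4 genes. Leaving out an array moved pathway genes called in DKO against WT between 13 (without DKO array 1 or WT array 3) and 32 (without either BCL6KO array). Over these, B4GALT1 in DKO against WT was -0.20 to -0.14, DAD1 there 0.18 to 0.24, and DAD1 in DKO against BCL6KO -0.64 to -0.19. The value table as an alternative was not run, because its columns conflict with their labels.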
